A study of Mus musculus with 20 samples.

Results

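The 42 genes described here are induced by type I interferon, and they were followed across 10 treatment groups of SCCVII tumors. They were chosen by gene symbol as known targets of this pathway. All 42 were found among the 54309 genes of the count table, and all 42 passed the low-count filter that left 19567 genes for testing. SCCVII is a mouse squamous cell carcinoma line used as a model of head and neck (H&N) cancer, and it was grown under the skin of immunocompetent C3H/HeOuJ mice. Bulk tumor mRNA was sequenced in 20 libraries, 2 per group, labelled A and B. APG-157, a botanical drug whose main component is curcumin, was given in chow, and the antibodies were injected into the peritoneum. Each of the 3 agents (the drug, anti-PD-1, anti-CTLA-4) was given alone. APG-157 was also joined to anti-PD-1 (APG-157 + anti-PD-1) or to anti-CTLA-4 (APG-157 + anti-CTLA-4), both antibodies were given without the drug (hereafter dual blockade), and all 3 agents were given at once (hereafter triple therapy). Anti-CD8 was given alone or on top of APG-157 + anti-CTLA-4 (hereafter the depleted combination), and the reference was the control group. Anti-PD-1 and anti-CTLA-4 block inhibitory receptors of T cells, and anti-CD8 removes CD8+ T cells. All groups share the same tumor line and mouse strain. The study's text describes a checkpoint experiment with saline as control and a separate depletion experiment with IgG as control. APG-157 + anti-CTLA-4 was given in both, while the labels give 1 control group and 1 group of this combination. They do not name the experiment, so experiment and treatment cannot be told apart for the anti-CD8 groups. The same limit may reach any comparison with control or with APG-157 + anti-CTLA-4, main effects of the agents included. Whether replicates A and B were different tumors is stated neither in the labels nor in the methods, and p-values therefore measure only the spread between these libraries.

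Type I interferons, interferon alpha and interferon beta, are made by cells that sense foreign or misplaced nucleic acid. They bind the receptor pair IFNAR1 and IFNAR2, which acts through the kinases JAK1 and TYK2 to assemble ISGF3, a complex that includes STAT2 and IRF9. ISGF3 binds a DNA element called the interferon-stimulated response element (ISRE) and turns on genes that block viruses, mark proteins with ISG15, sense RNA and DNA, and feed back on the pathway. Interferon gamma, made by T cells and natural killer (NK) cells, uses another receptor and acts through a DNA element called GAS, and it induces many of the same genes less strongly.

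The start sites of these genes were searched for the letters of both elements, and the stretches that hold the ISRE letters are shown for members that recur below. Of the 42 genes, 31 had a RefSeq window (GRCm38.p6, 250 bases before to 50 bases after the start). The ISRE core, searched on both strands as GAAA, any 2 bases and GAAA, was present for 17 of these 31 genes and in 20 of their 38 windows (52.6%), against 3.44% of all 32841 windows. The share was also high in gene lists described further on. It was 47.6% of 21 windows of interferon gamma response genes and 40% of 45 windows of further genes induced by type I interferon. The GAS letters, TTC, any 3 bases and GAA, were present in 7 of the 38 windows (18.4%), against 8.3% of all windows, and overlapped an ISRE match in 2 of them. In the same 2 lists the GAS share was 38.1% for interferon gamma response genes and 6.67% for the further type I genes. The stretches below read 5′ to 3′ on the strand of the gene and end before the start, with the ISRE letters in capitals, which appear as TTTC, any 2 bases and TTTC where the element lies on the other strand.
Isg15, chr4:156200860-156200911: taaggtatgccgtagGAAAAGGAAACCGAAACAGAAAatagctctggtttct
Ifit1, chr19:34640770-34640828: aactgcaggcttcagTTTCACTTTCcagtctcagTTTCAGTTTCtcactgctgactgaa
Ifit3, chr19:34583358-34583431: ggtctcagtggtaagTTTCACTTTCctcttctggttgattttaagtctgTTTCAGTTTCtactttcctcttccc
Ifit3b, chr19:34607754-34607827: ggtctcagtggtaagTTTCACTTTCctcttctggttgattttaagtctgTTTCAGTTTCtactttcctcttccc
Oas3, chr5:120777710-120777749: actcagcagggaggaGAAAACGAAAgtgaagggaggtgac
Stat2, chr10:128270261-128270300: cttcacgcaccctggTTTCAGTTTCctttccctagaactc
Rsad2, chr12:26456548-26456587: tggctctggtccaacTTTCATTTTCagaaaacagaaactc
Isg15 held 3 overlapping matches and Ifit1 held 2. Isg15, Oas3 and Rsad2 lie on the minus strand, and Ifit1, Ifit3, Ifit3b and Stat2 lie on the plus strand. The stretches of Ifit3 and Ifit3b differed at 0 bases, and reads of such close copies can be split between them. The same may hold in part for Oas1a and Oas1g, for Ifit1 and Ifit1bl1, and for the Schlafen genes. Transcript sequences were not compared for any of these genes. The other 14 genes with a window had no ISRE match, among them Irf7, Irf9, Ifit2, Dtx3l, Slfn1, Cmpk2 and Samd9l, and 11 genes had no window, among them Zbp1, Mx1, Parp14 and Tor3a. Of the 6 genes that fell on depletion of CD8+ T cells, described further on, Parp14 and Tor3a had no window to search. Among the rest, Dtx3l, Ifit2 and Samd9l had no ISRE match and Rsad2 had 1, beside a match for 17 of all 31 genes with a window. These genes are too few to compare the shares, and their calls depended on single libraries. A match is a description of the letters and not a site shown to be bound.

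Library totals lay between 43920525 and 72081922 counts. Levels are given as CPM, counts scaled to a TMM-adjusted library total of 1e+06, always as replicate A and replicate B, and they are not scaled for gene length. The simple-epithelium keratin Krt8 lay between 508 and 981 CPM in the 20 libraries, whereas the squamous keratin Krt5 was at 0 in 16 of them. Cd8a was at 0.144 and 0.121 CPM under anti-CD8 and at 0.260 and 0.381 CPM under the depleted combination, against 5.66 and 6.67 CPM in control. Replicates A and B of APG-157 + anti-CTLA-4 were the most alike of the 10 pairs, with a biological coefficient of variation of 4.26% against 20.8% to 67.3% in the other groups. They still differed by more than sampling noise (chi-square per degree of freedom 10.1, against 48.4 to 618) and were kept as 2 samples. Counting noise does not tell different tumors from pieces of the same tumor, and the study's text speaks of a single small tumor from this group in other assays, so every test with this group rests on an n of 2 that was not checked. Replicate B of the depleted combination stood apart, with 8 adipocyte markers summing to 4394 CPM against at most 123 CPM in the other 19 libraries and with Epcam at 218 CPM against at most 0.608 CPM. In bulk tumor RNA, fewer cells of a type and less RNA per cell cannot be told apart.

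Most of the 42 genes moved together from library to library. Their levels were above those of both control libraries for 42 genes in dual blockade replicate B, 41 in replicate A of triple therapy, 41 in APG-157 + anti-PD-1 replicate A and 38 in each APG-157 + anti-CTLA-4 library. Replicate B of dual blockade was the highest of all 20 libraries for 19 genes. At the other end, replicate B of APG-157 was the lowest of all 20 libraries for 26 genes and lay below both controls for 39. Replicate A of the same group lay above both controls for 37 genes, so that 41 of the 42 genes were higher in replicate A (50% of all genes), by a median of 1.13 on the log2 scale. The libraries of anti-CTLA-4 were also split, with 37 genes above both controls in replicate A, and 9 above and 26 below in replicate B. In triple therapy 40 of the 42 genes were higher in replicate A, against 50.1% of all genes. For single libraries, the share of all genes above or below both controls, or highest or lowest of 20, was not computed. Those counts therefore describe the 42 genes without a background.

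By their median, markers of fat moved with the splits in these 3 groups, as did other gene lists in part. As log2(CPM + 0.1) minus the mean of both controls, the median of the 8 adipocyte markers was 2.72 and −0.81 in the libraries of APG-157, 1.72 and −0.37 with anti-CTLA-4, and 2.07 and −0.74 with triple therapy. Their summed levels were 60.1 and 44.01 CPM with APG-157, 67.8 and 62.8 CPM with anti-CTLA-4, and 103 and 36.4 CPM with triple therapy, against 43.7 and 80.8 CPM in control. The 12 skeletal muscle markers summed to 6139 and 7.76 CPM in triple therapy and to 50.1 and 9.59 CPM with APG-157, but to 10.9 and 2202 CPM with anti-CTLA-4, against 50.02 and 86.0 CPM in control. Interferon gamma response genes, described further on, had medians on the same scale of 1.58 and −1.63 with anti-CTLA-4. They had 2.18 and −0.06 with triple therapy and −0.33 and −1.06 with APG-157. T and NK cell genes had 2.42 and −1.66, 2.40 and −0.54, and −1.40 and −1.55 in the same order of groups. With APG-157 + anti-PD-1 the adipocyte markers had 2.52 and 0.41, and the 42 genes 0.52 and 0.34. With dual blockade the adipocyte markers had −0.25 and 0.74, and the 42 genes 0.83 and 0.97. The values were −0.81 and −0.82 beside 0.72 and 0.66 with APG-157 + anti-CTLA-4, and 0.49 and 0.97 beside 0.42 and 0.29 with anti-PD-1. The part of fat, muscle and these lists in the values of the 42 genes was not tested.

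**Figure D1:**
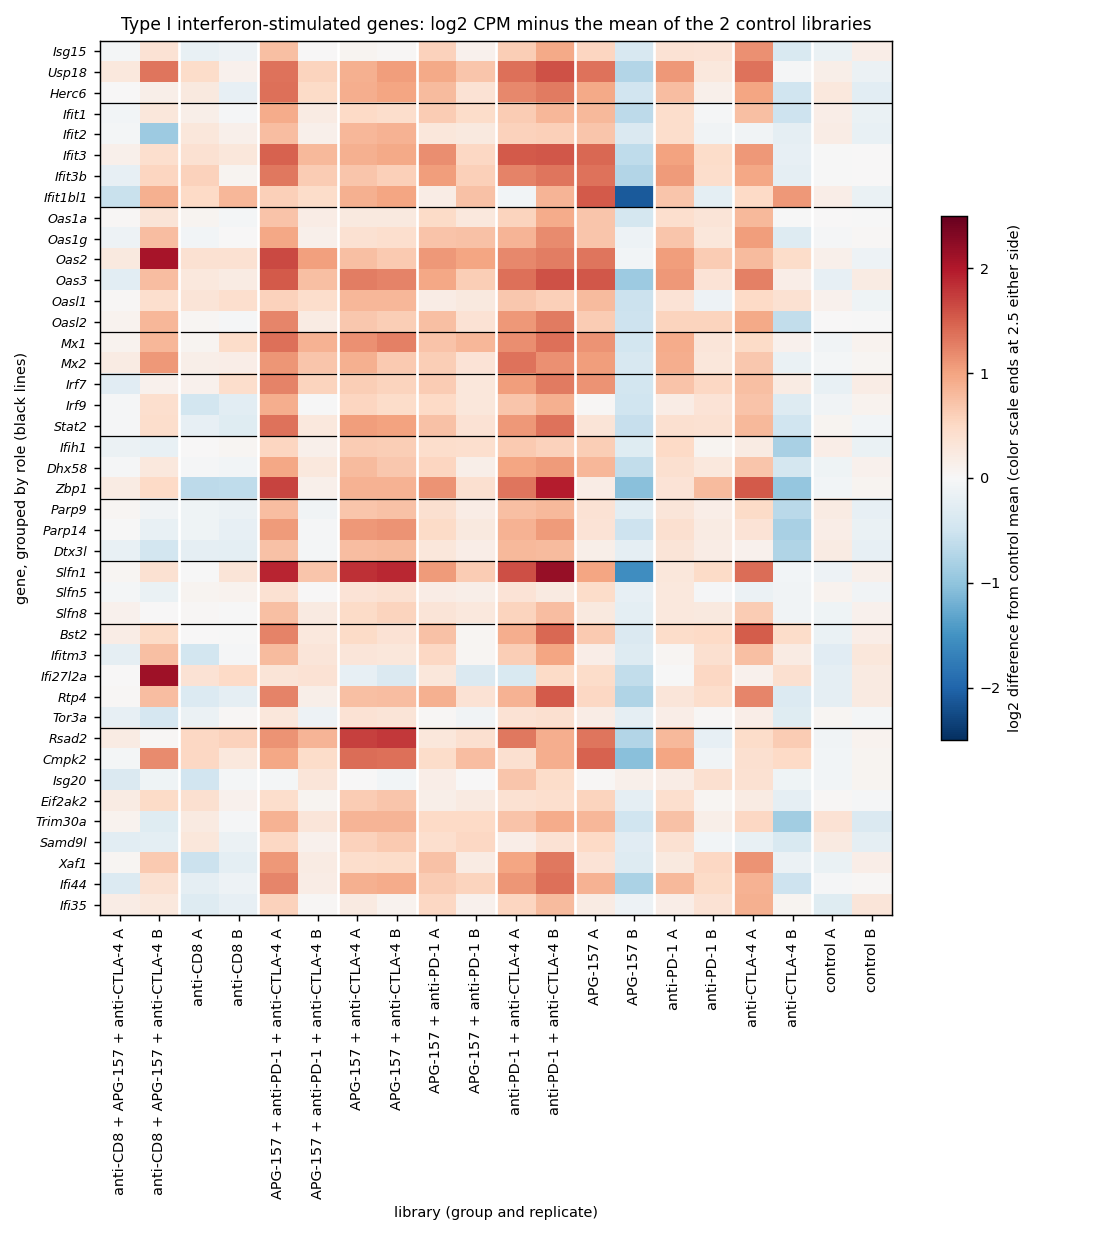
Heat map of the 42 genes (rows, grouped by role) in the 20 libraries (columns), colored by log2 CPM minus the mean of the 2 control libraries. The columns of dual blockade and APG-157 + anti-CTLA-4 are red for nearly every gene, while replicates A and B of APG-157 differ in color for 41 of 42 genes.

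By group mean, 29 genes were highest with dual blockade, 11 with APG-157 + anti-CTLA-4 and 2 with the depleted combination. The lowest mean was in control for 17 genes, in anti-CD8 for 16, in the depleted combination for 5, in anti-CTLA-4 for 3 and in APG-157 + anti-CTLA-4 for 1. The fold between the highest and the lowest of 20 libraries ran from 1.59 for Slfn5 to 13.3 for Slfn1.

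By group mean, Isg15 and the enzymes of its conjugation were highest with dual blockade. Isg15 (ENSMUSG00000035692.8), a ubiquitin-like protein attached to other proteins during antiviral responses, had 27.1 and 34.1 CPM under dual blockade, 29.8 and 17.7 CPM under triple therapy, 18.6 and 18.1 CPM under APG-157 + anti-CTLA-4 and 26.2 and 19.02 CPM under APG-157 + anti-PD-1. It had 25.7 and 13.3 CPM under APG-157, 22.7 and 22.4 CPM under anti-PD-1, 39.0 and 13.5 CPM under anti-CTLA-4, 15.5 and 16.1 CPM under anti-CD8 and 17.1 and 22.5 CPM under the depleted combination, against 15.8 and 19.7 CPM in control. Both dual blockade libraries lay above both controls, whereas those of APG-157 + anti-CTLA-4 were within the control range. Usp18, which removes ISG15 and restrains the interferon receptor, ranged from 5.15 to 25.8 CPM (median 14.9) with its lowest value in APG-157 replicate B. It had 22.2 and 25.8 CPM under dual blockade and 15.9 and 17.7 CPM under APG-157 + anti-CTLA-4, against 9.43 and 7.74 CPM in control, with no overlap. Usp18 was at 22.01 and 12.6 CPM under triple therapy, 16.5 and 13.9 CPM under APG-157 + anti-PD-1, 21.97 and 5.15 CPM under APG-157, 18.04 and 10.3 CPM under anti-PD-1, 22.03 and 8.42 CPM under anti-CTLA-4, 11.7 and 9.23 CPM under anti-CD8 and 10.3 and 21.6 CPM under the depleted combination. Herc6, the mouse ligase that attaches ISG15, ranged from 18.0 to 66.3 CPM.

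The IFIT proteins bind viral RNA and stop its translation. Ifit1 (ENSMUSG00000034459.9) had 62.6 and 71.1 CPM under dual blockade, 76.9 and 46.1 CPM under triple therapy, 56.6 and 54.4 CPM under APG-157 + anti-CTLA-4 and 62.8 and 55.0 CPM under APG-157 + anti-PD-1. It had 70.5 and 25.6 CPM under APG-157, 54.4 and 39.5 CPM under anti-PD-1, 67.3 and 28.0 CPM under anti-CTLA-4, 44.5 and 39.3 CPM under anti-CD8 and 38.5 and 49.1 CPM under the depleted combination, against 45.3 and 35.7 CPM in control. The 4 combinations without anti-CD8 lay above both controls in all 8 libraries, while APG-157 and anti-CTLA-4 each had 1 library above and 1 below. Ifit3 had 78.3 and 78.5 CPM under dual blockade against 26.8 and 27.0 CPM in control, a log2 fold change of 1.54 (SE 0.54, edgeR adjusted p = 0.73), where SE is the standard error of the fit. Ifit1bl1 was the lowest-count member, at 0.405 to 5.00 CPM (median 2.53), with both extremes in the APG-157 group. It had 1.65 and 3.13 CPM under dual blockade, 2.62 and 2.38 CPM under triple therapy, 3.19 and 3.42 CPM under APG-157 + anti-CTLA-4, 1.96 and 2.87 CPM under APG-157 + anti-PD-1, 5.00 and 0.405 CPM under APG-157, 2.79 and 1.46 CPM under anti-PD-1, 2.44 and 3.68 CPM under anti-CTLA-4, 2.44 and 3.06 CPM under anti-CD8 and 1.17 and 3.19 CPM under the depleted combination, against 1.96 and 1.54 CPM in control. Groups overlapped widely for this gene.

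The OAS enzymes make a second messenger that activates RNase L, which degrades viral and cellular RNA, and the mouse Oasl proteins are related to them. All 6 genes had both libraries above both controls with dual blockade and with APG-157 + anti-CTLA-4. Oas3 (ENSMUSG00000032661.10) had 24.5 and 28.5 CPM under dual blockade and 22.9 and 22.1 CPM under APG-157 + anti-CTLA-4, against 8.22 and 10.8 CPM in control, and it had 27.5 and 5.05 CPM under APG-157. The 2 APG-157 libraries held the second highest and the lowest of the 20 Oas3 values. Oas3 was at 27.3 and 15.9 CPM under triple therapy, 18.4 and 14.4 CPM under APG-157 + anti-PD-1, 20.1 and 11.9 CPM under anti-PD-1, 22.7 and 10.6 CPM under anti-CTLA-4, 11.3 and 10.8 CPM under anti-CD8 and 7.81 and 16.1 CPM under the depleted combination. Oas2 stood at 33.9 CPM in replicate B of the depleted combination, above its level in the other 19 libraries, which was also the library with adipocyte markers and Epcam.

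MX proteins are GTPases that trap viral particles. Mx1 (ENSMUSG00000000386.17) had 11.9 and 13.8 CPM under dual blockade, 13.7 and 9.73 CPM under triple therapy and 11.6 and 12.7 CPM under APG-157 + anti-CTLA-4, against 4.99 and 5.62 CPM in control. It had 11.49 and 3.87 CPM under APG-157, 7.36 and 5.74 CPM under anti-CTLA-4, 5.56 and 7.31 CPM under anti-CD8, 8.70 and 9.44 CPM under APG-157 + anti-PD-1, 10.1 and 6.52 CPM under anti-PD-1 and 5.61 and 9.43 CPM under the depleted combination. Its log2 fold change with dual blockade was 1.28 (SE 0.41, edgeR adjusted p = 0.73), and no member had a lower adjusted p in that comparison.

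The 3 transcription factors were highest by group mean with dual blockade, and the lowest mean was in the depleted combination for Irf7 and in anti-CD8 for Stat2 and Irf9. Irf7 (ENSMUSG00000025498.16), the factor that amplifies interferon alpha production, had 76.2 and 90.2 CPM under dual blockade, 86.5 and 54.2 CPM under triple therapy, 56.2 and 53.9 CPM under APG-157 + anti-CTLA-4 and 57.4 and 44.7 CPM under APG-157 + anti-PD-1. It had 80.0 and 26.9 CPM under APG-157, 60.3 and 52.5 CPM under anti-PD-1, 62.2 and 42.2 CPM under anti-CTLA-4, 39.4 and 49.6 CPM under anti-CD8 and 30.1 and 39.4 CPM under the depleted combination, against 32.3 and 41.98 CPM in control. Replicate A of APG-157 was the third highest of the 20 Irf7 values and replicate B the lowest. Stat2 (ENSMUSG00000040033.17) had 104 and 127 CPM under dual blockade, 127 and 59.5 CPM under triple therapy, 102 and 98.9 CPM under APG-157 + anti-CTLA-4 and 81.7 and 63.2 CPM under APG-157 + anti-PD-1. It had 61.7 and 33.1 CPM under APG-157, 64.8 and 64.4 CPM under anti-PD-1, 86.2 and 35.0 CPM under anti-CTLA-4, 42.9 and 40.0 CPM under anti-CD8 and 48.4 and 66.7 CPM under the depleted combination, against 51.7 and 47.1 CPM in control. Both anti-CD8 libraries lay below both controls for Stat2. Irf9 (ENSMUSG00000002325.16), the DNA-binding subunit of ISGF3, had 50.3 and 57.8 CPM under dual blockade and 45.4 and 43.2 CPM under APG-157 + anti-CTLA-4, against 29.5 and 33.1 CPM in control. In the APG-157 group Irf9 was at 31.9 and 22.02 CPM, so that replicate A did not pass both controls, in contrast to Irf7. Irf9 was at 58.4 and 31.0 CPM under triple therapy, 44.4 and 38.2 CPM under APG-157 + anti-PD-1, 35.5 and 39.4 CPM under anti-PD-1, 51.1 and 24.9 CPM under anti-CTLA-4, 22.8 and 26.0 CPM under anti-CD8 and 30.5 and 41.9 CPM under the depleted combination.

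**Figure D2:**
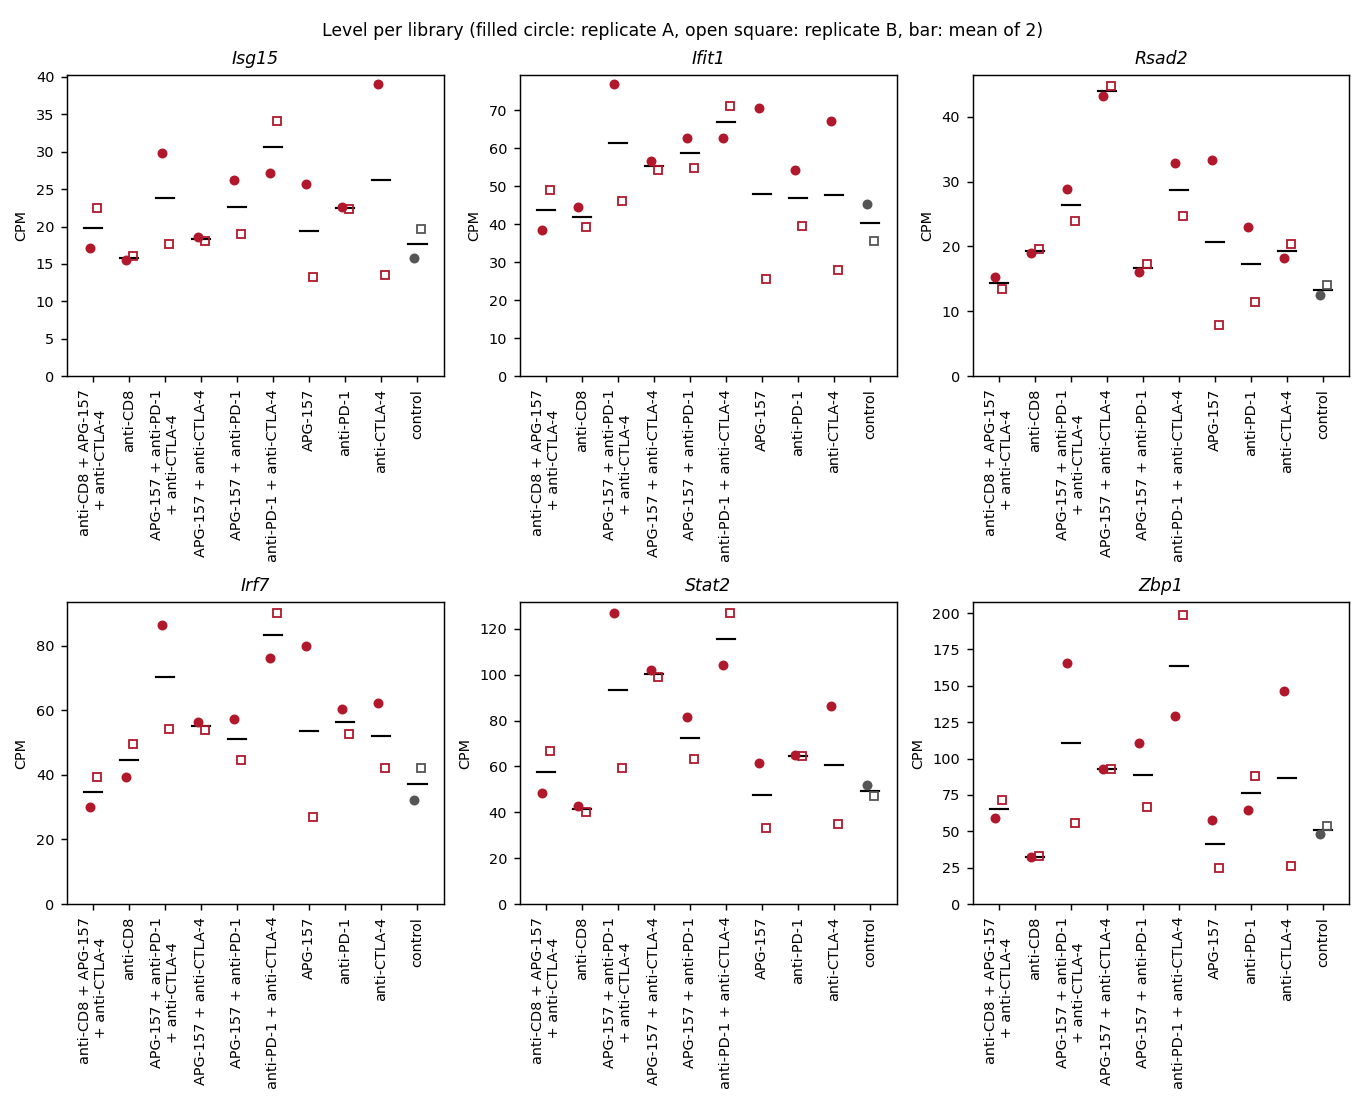
Levels of 6 genes in CPM (vertical axes, from 0) in the 10 groups, with replicate A as a filled circle, replicate B as an open square and the mean of 2 as a bar. Rsad2 is highest in replicates A and B of APG-157 + anti-CTLA-4 (43.2 and 44.7 CPM), while Zbp1 is highest in dual blockade replicate B (199 CPM).

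Among the nucleic acid sensors, the largest range was that of Zbp1. Zbp1 (ENSMUSG00000027514.15), a sensor of left-handed (Z-form) nucleic acid that triggers cell death, had 129 and 199 CPM under dual blockade, 165 and 55.9 CPM under triple therapy, 93.0 and 92.5 CPM under APG-157 + anti-CTLA-4 and 111 and 67.0 CPM under APG-157 + anti-PD-1. It had 57.7 and 24.6 CPM under APG-157, 64.7 and 87.8 CPM under anti-PD-1, 147 and 26.1 CPM under anti-CTLA-4, 32.2 and 33.0 CPM under anti-CD8 and 59.0 and 71.8 CPM under the depleted combination, against 48.5 and 53.6 CPM in control. The 2 anti-CD8 libraries lay below both controls. Ifih1, the RNA sensor MDA5, ranged from 22.4 to 62.0 CPM and Dhx58, the related LGP2, from 10.3 to 33.0 CPM.

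Parp9 and Dtx3l form a complex that adds ADP-ribose and ubiquitin to proteins, and Parp14 is a related ADP-ribosyl transferase. Parp14 (ENSMUSG00000034422.15) had 163 and 188 CPM under dual blockade, 189 and 194 CPM under APG-157 + anti-CTLA-4 and 114 and 51.1 CPM under anti-CTLA-4, against 100.3 and 79.9 CPM in control. Dtx3l (ENSMUSG00000049502.18) had 158 and 156 CPM under dual blockade, 155 and 156 CPM under APG-157 + anti-CTLA-4 and 96.6 and 53.4 CPM under anti-CTLA-4, against 104 and 78.6 CPM in control. For both genes replicates A and B of APG-157 + anti-CTLA-4 were above the anti-CTLA-4 and the control libraries with no overlap. Parp14 was at 187 and 87.6 CPM under triple therapy, 125 and 106 CPM under APG-157 + anti-PD-1, 114 and 62.7 CPM under APG-157, 119 and 103 CPM under anti-PD-1 and 83.5 and 77.6 CPM under anti-CD8. Dtx3l was at 149.9 and 86.6 CPM under triple therapy, 110.5 and 101 CPM under APG-157 + anti-PD-1, 99.7 and 77.0 CPM under APG-157, 112 and 103 CPM under anti-PD-1 and 77.0 and 76.0 CPM under anti-CD8.

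Schlafen genes restrain growth of lymphocytes and viruses. Slfn1 (ENSMUSG00000078763.3), expressed in mouse T cells and macrophages, had 26.5 and 39.1 CPM under dual blockade, 32.4 and 14.04 CPM under triple therapy, 30.8 and 32.0 CPM under APG-157 + anti-CTLA-4 and 22.8 and 8.28 CPM under anti-CTLA-4, against 7.92 and 9.47 CPM in control. It had 17.2 and 2.94 CPM under APG-157, where replicate B was the lowest of all 20 libraries. Slfn1 was at 18.03 and 13.5 CPM under APG-157 + anti-PD-1, 10.6 and 12.1 CPM under anti-PD-1, 8.58 and 10.8 CPM under anti-CD8 and 9.00 and 11.3 CPM under the depleted combination. Its log2 fold change was 1.92 (SE 0.66, edgeR adjusted p = 0.73) with dual blockade and 1.85 (SE 0.66, edgeR adjusted p = 0.38) with APG-157 + anti-CTLA-4, the largest of the 42 genes in either comparison. Slfn5 ranged only from 97.3 to 155 CPM.

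Of the 5 membrane and secretory pathway proteins, Ifi27l2a (ENSMUSG00000079017.4), a small interferon-induced protein of mitochondrial and nuclear membranes, did not follow the others. It had 37.1 and 159.6 CPM under the depleted combination, 28.4 and 51.0 CPM under dual blockade and 31.7 and 28.5 CPM under APG-157 + anti-CTLA-4, against 31.3 and 43.2 CPM in control. The value in replicate B of the depleted combination was far above the rest, in the library with adipocyte markers, while the APG-157 + anti-CTLA-4 libraries overlapped with control. Ifi27l2a was at 46.2 and 47.5 CPM under triple therapy, 44.8 and 28.8 CPM under APG-157 + anti-PD-1, 50.2 and 24.1 CPM under APG-157, 36.6 and 52.8 CPM under anti-PD-1, 39.5 and 48.4 CPM under anti-CTLA-4 and 47.0 and 51.8 CPM under anti-CD8. Bst2, the tether that holds budding viruses on the cell, ranged from 56.1 to 205 CPM and Ifitm3, which blocks viral entry, from 189 to 512 CPM. Tor3a, an ATPase of the endoplasmic reticulum, ranged from 65.8 to 117 CPM. Tor3a was at 113 and 117 CPM under dual blockade, 108 and 80.9 CPM under triple therapy, 90.5 and 82.8 CPM under APG-157 + anti-PD-1, 100.5 and 75.8 CPM under APG-157, 98.7 and 89.8 CPM under anti-PD-1, 99.6 and 71.2 CPM under anti-CTLA-4 and 79.4 and 90.4 CPM under anti-CD8. Of the 42 genes, only Slfn5 had a narrower range in log2 CPM.

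Among the other effectors, Rsad2 (ENSMUSG00000020641.17) (viperin), which makes a chain-terminating nucleotide against viral polymerases, was highest with APG-157 + anti-CTLA-4 and not with dual blockade. It had 43.2 and 44.7 CPM under APG-157 + anti-CTLA-4, 32.9 and 24.6 CPM under dual blockade, 28.9 and 23.9 CPM under triple therapy and 16.1 and 17.3 CPM under APG-157 + anti-PD-1. It had 33.4 and 7.93 CPM under APG-157, 23.1 and 11.4 CPM under anti-PD-1, 18.2 and 20.4 CPM under anti-CTLA-4, 18.9 and 19.6 CPM under anti-CD8 and 15.2 and 13.4 CPM under the depleted combination, against 12.5 and 14 CPM in control. Its neighbor Cmpk2, a mitochondrial nucleotide kinase, had 18.9 and 18.6 CPM under APG-157 + anti-CTLA-4, 9.41 and 13.4 CPM under dual blockade and 20.03 and 3.49 CPM under APG-157, against 6.84 and 7.53 CPM in control. Both genes had their lowest value in APG-157 replicate B, and replicate A of that group held the highest Cmpk2 value of all 20 libraries. Cmpk2 was at 14.01 and 9.83 CPM under triple therapy, 9.93 and 12.2 CPM under APG-157 + anti-PD-1, 14.2 and 6.76 CPM under anti-PD-1, 9.48 and 10.1 CPM under anti-CTLA-4, 10.2 and 8.65 CPM under anti-CD8 and 6.97 and 16.2 CPM under the depleted combination. Samd9l (ENSMUSG00000047735.15), an antiviral factor that also slows growth, had 118 and 123 CPM under APG-157 + anti-CTLA-4 and 88.4 and 101 CPM under dual blockade, against 91.8 and 67.2 CPM in control. Samd9l was at 113 and 84.7 CPM under triple therapy, 106 and 112 CPM under APG-157 + anti-PD-1, 110.5 and 64.9 CPM under APG-157, 102 and 74.5 CPM under anti-PD-1, 69.1 and 60.0 CPM under anti-CTLA-4 and 95.0 and 71.3 CPM under anti-CD8. The remaining 6 genes of this set, among them Eif2ak2, the RNA-activated kinase PKR, and Isg20, an exonuclease, ranged from 8.31 CPM (Isg20) to 144 CPM (Ifi44).

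The first question was whether each treatment differed from control. With dual blockade, all 42 genes had positive log2 fold changes, with a median of 0.88 against −0.04 over all genes tested, of which 44.5% were positive. For 39 of the 42 genes both treated libraries lay above both controls, against 18.8% of all genes, and the exceptions were Ifit1bl1, Ifi27l2a and Samd9l. At an adjusted p under 0.05, 0 of 42 genes were called by edgeR's quasi-likelihood test and 0 by DESeq2. Of all genes in this comparison, edgeR called 0% and DESeq2 0.404%. At an unadjusted p under 0.05, 29 genes were higher by edgeR, against 4.22% of all genes. That count was 8 without replicate B of dual blockade, and 6 or 10 without replicate A or B of control. The 2 transcription factors with the largest shifts were Stat2, at 1.23 (SE 0.41), and Irf7, at 1.17 (SE 0.40).

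APG-157 + anti-CTLA-4 gave 40 positive log2 fold changes (46.5% of all genes) with a median of 0.70 (all genes −0.03). In 38 genes both libraries lay above both controls (28.8% of all genes), the exceptions being Isg15, Ifi27l2a, Isg20 and Ifi35. Rsad2 had the lowest adjusted p, with a log2 fold change of 1.73 (SE 0.48, edgeR adjusted p = 0.263), and DESeq2 called it as the sole member (1.87% of all genes by DESeq2). The number called by edgeR was 0 of 42 (0% of all genes called higher and 0.0204% lower), with 12 at an unadjusted p under 0.05 (5.71% of all genes). That count was 6 without either library of the group, and 7 or 3 without replicate A or B of control. Markers of other cells moved with this group. Against control, 7 of 9 fibroblast markers (median −1.01), 5 of 6 endothelial markers (median −0.80) and 12 of 12 skeletal muscle markers (median −5.02) had negative log2 fold changes, and edgeR called 0 of them. Fibroblast markers summed to 3053 and 2912 CPM in APG-157 + anti-CTLA-4, against 5573 and 4971 CPM in control. Endothelial markers summed to 96.9 and 98.2 CPM against 160 and 196 CPM in control, and muscle markers to 6.68 and 6.32 CPM against 50.02 and 86.0 CPM in control. Their part in the values of the 42 genes was not tested.

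Triple therapy gave 42 positive log2 fold changes (47.7% of all genes), with a median of 0.61, with 28 genes above both controls in both libraries (13.9% of all genes). APG-157 + anti-PD-1 gave 40 positive values (48% of all genes), with a median of 0.45, and 33 such genes (11.2% of all genes). Anti-PD-1 gave 42 positive values (50.9% of all genes), with a median of 0.37, and 25 such genes (13.7% of all genes). In each of these comparisons edgeR and DESeq2 called 0 of 42 genes, and edgeR called 0% of all genes. At an unadjusted p under 0.05, edgeR gave 7 genes with triple therapy (2.23% of all genes), 0 when APG-157 + anti-PD-1 was given (1.19%), and 0 for anti-PD-1 (0.353%). For triple therapy the median was 0.27 without its replicate A and 0.98 without its replicate B, and the count at an unadjusted p under 0.05 was 0 and 16 in these fits and 1 without either control library.

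Neither APG-157 nor anti-CTLA-4 alone had a common direction between their libraries. APG-157 gave 33 positive log2 fold changes (47.2% of all genes) with a median of 0.22, and 0 of 42 genes had both libraries on the same side of both controls, against 7.82% of all genes above and 13.2% below. That median was 0.67 without replicate B and −0.44 without replicate A. Anti-CTLA-4 gave 33 positive values (54.1% of all genes) with a median of 0.39, which was 0.68 without replicate B and −0.25 without replicate A, and 8 genes lay above both controls in both libraries (18.2% of all genes). EdgeR and DESeq2 called 0 of 42 genes in both comparisons (edgeR 0% of all genes, DESeq2 0.0358% for APG-157 and 0.092% for anti-CTLA-4). At an unadjusted p under 0.05 edgeR gave 0 genes for APG-157 (0.302% of all genes higher) and 1, Bst2, for anti-CTLA-4 (3.54%). Those counts were 3 without replicate A and 16 without replicate B of APG-157, and 3 without replicate A and 10 without replicate B of anti-CTLA-4.

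Anti-CD8 left the 42 genes near control. The median log2 fold change was 0.02, with 24 positive values (46.8% of all genes) and 18 negative ones. In 11 genes both libraries lay above both controls (12.9% of all genes) and in 7 both lay below (19.1%), namely Irf9, Stat2, Zbp1, Dtx3l, Rtp4, Xaf1 and Ifi44. With the depleted combination 31 values were positive (50.8% of all genes), the median was 0.21, and −0.02 without replicate B, and 9 genes lay above both controls in both libraries (18.3% of all genes). In both comparisons edgeR and DESeq2 called 0 of 42 genes. Of all genes, DESeq2 called 0.0307% with anti-CD8 and 6.76% with the depleted combination, and edgeR called 0% higher and 0% and 0.0102% lower. At an unadjusted p under 0.05 the counts were 0 (0.322% of all genes higher) and 2, Oas2 and Ifi27l2a (13.3%), the second being 0 without replicate B and 4 without replicate A of the depleted combination.

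**Figure D3:**
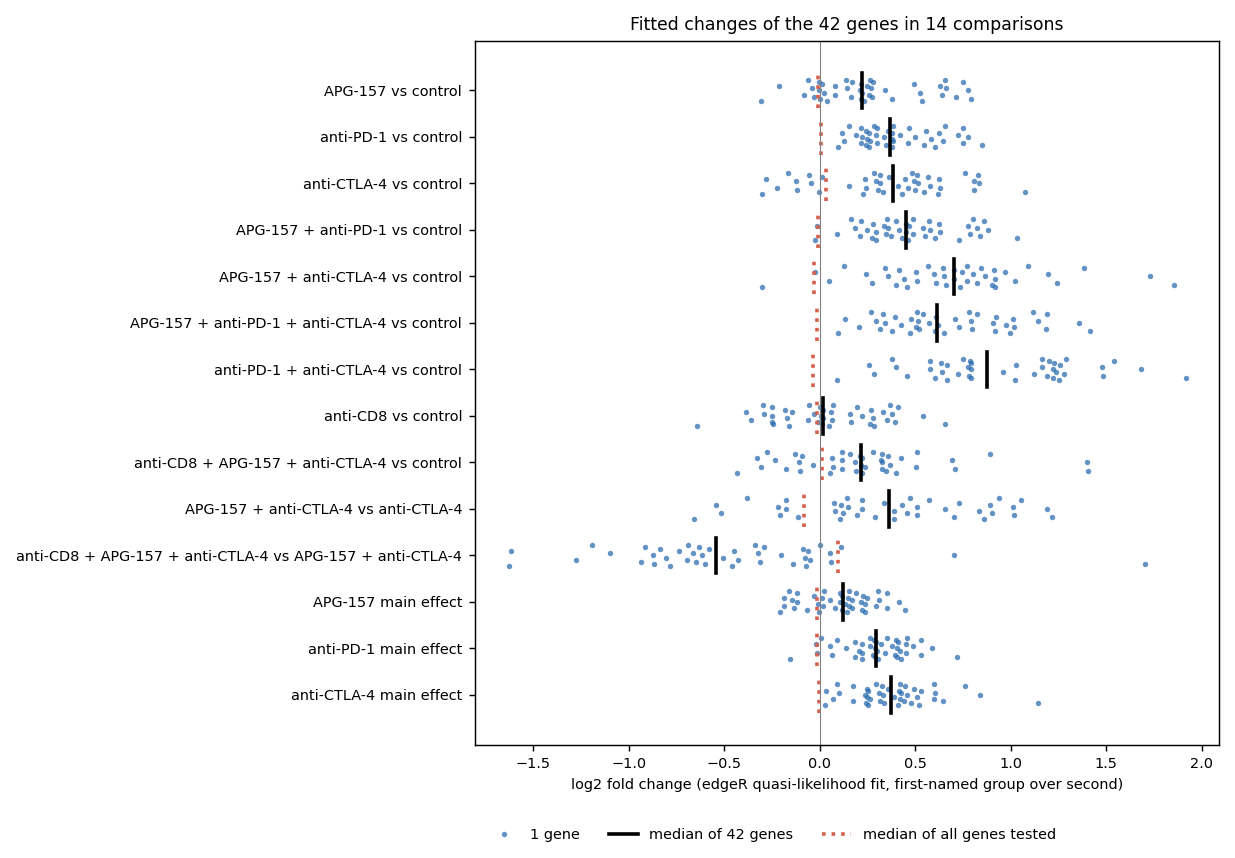
Fitted log2 fold changes of the 42 genes (points) in 14 comparisons, with their median (black bar) and the median of all genes tested (dotted red bar), where a main effect is libraries with the agent over libraries without it. The median of the 42 genes lies highest for dual blockade (0.88) and lowest for the depleted combination against APG-157 + anti-CTLA-4 (−0.54).

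The 8 groups without anti-CD8 form a full factorial, which sets 8 libraries with an agent against 8 without it. Anti-CTLA-4 had a positive main effect in all 42 genes (48.9% of all genes), with a median of 0.37 on the log2 scale. Slfn1 had the largest, at 1.14 (SE 0.32, edgeR adjusted p = 0.187), followed by Zbp1 at 0.84 (SE 0.33), Rsad2 at 0.76 (SE 0.23) and Stat2 at 0.65 (SE 0.20). EdgeR called 0 of 42 genes (0.158% of all genes higher) with 14 at an unadjusted p under 0.05 (5.84%), while DESeq2 called Rsad2, Stat2 and Slfn1 (2.92% of all genes). Without APG-157 replicate A, edgeR called Rsad2, Oasl1 and Slfn1 (0.568% of all genes). With each library left out, the count at an unadjusted p under 0.05 ran from 6 (without replicate A of anti-CTLA-4 or of triple therapy) to 34 (without APG-157 replicate A), and the median from 0.24 to 0.59. The main effect of anti-PD-1 was positive in 39 genes with a median of 0.30, and that of APG-157 in 30 genes with a median of 0.12, against 46.4% of all genes in each. For both, edgeR and DESeq2 called 0 of 42 genes (edgeR 0% of all genes, DESeq2 0.761% for anti-PD-1 and 0.0409% for APG-157). At an unadjusted p under 0.05 edgeR gave 7 genes for anti-PD-1 (5.69% of all genes) and 1 gene, Samd9l, for APG-157 (2.18%). The anti-PD-1 count ran from 0 (without anti-CTLA-4 replicate B) to 32 (without APG-157 replicate A) and its median from 0.21 to 0.49. The sign of the APG-157 median turned without APG-157 replicate A, at −0.089, with 0.28 as its highest value, and the APG-157 count was 10 without APG-157 replicate B. Each of the 3 interactions between agents, which were added after seeing the data, gave 0 of 42 calls by edgeR (0% of all genes). When APG-157 was paired with anti-PD-1 the interaction had a median of −0.415, with 3 genes at an unadjusted p under 0.05. The main effects of both agents average over this value, and whether they are additive is left undecided. The median was −0.098 when the drug was paired with anti-CTLA-4 and −0.00057 between the antibodies, with 0 such genes in each. No share of all genes is given for these unadjusted counts. In a test for any difference among the 10 groups, edgeR called 0 of 42 genes (0.879% of all genes), with 5 at an unadjusted p under 0.05 (16.5%), and DESeq2 called 7 (16.9%), namely Rsad2, Zbp1, Parp14, Isg20, Stat2, Dtx3l and Slfn1.

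A further question of the design is what APG-157 adds to anti-CTLA-4. Set against anti-CTLA-4, APG-157 + anti-CTLA-4 gave 33 positive log2 fold changes (43.8% of all genes) with a median of 0.36, and 17 genes had both libraries above both anti-CTLA-4 libraries (28.6% of all genes). That median was −0.01 without anti-CTLA-4 replicate B and 0.99 without replicate A. Dtx3l came closest to a call, at 1.05 (SE 0.27, edgeR adjusted p = 0.0677), with 155 and 156 CPM in APG-157 + anti-CTLA-4 and 96.6 and 53.4 CPM in anti-CTLA-4. Samd9l was at 0.90 (SE 0.25), Parp14 at 1.22 (SE 0.38), Ifit2 at 1.01 (SE 0.33) and Rsad2 at 1.19 (SE 0.47). EdgeR called 0 of 42 genes (0.00511% of all genes higher), with 9 at an unadjusted p under 0.05 (11.4%), which became 18 without anti-CTLA-4 replicate A and 5 without replicate B, whereas DESeq2 called 5 (14.3% of all genes), namely Eif2ak2, Parp14, Ifit2, Samd9l and Dtx3l.

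Depletion of CD8+ T cells under the combination was the comparison in which members were called. The depleted combination gave lower levels than APG-157 + anti-CTLA-4 for 37 of 42 genes and positive log2 fold changes for 5 (55.3% of all genes), with a median log2 fold change of −0.54 (all genes 0.09), and 29 genes lay below in both libraries (31.1% of all genes). Of the 42 genes, 6 fell by edgeR at an adjusted p under 0.05 (8.18% of all genes called lower) and Ifi27l2a rose (10.8% called higher). In all, 16.7% of the members were called against 19% of all genes, a share near the background. DESeq2 called 8 members (29.4% of all genes).

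Dtx3l fell to 79.3 and 65.6 CPM under the depleted combination, against 155 and 156 CPM under APG-157 + anti-CTLA-4, a log2 fold change of −1.10 (SE 0.27, edgeR adjusted p = 0.0282). Ifit2 (ENSMUSG00000045932.13) fell to 54.1 and 29.9 CPM, against 100.5 and 103 CPM under APG-157 + anti-CTLA-4, a log2 fold change of −1.28 (SE 0.34, edgeR adjusted p = 0.0299). Rsad2 fell to 15.2 and 13.4 CPM, against 43.2 and 44.7 CPM under APG-157 + anti-CTLA-4, a log2 fold change of −1.61 (SE 0.47, edgeR adjusted p = 0.0375). In these 3 genes no library of one group overlapped with the other. For Rsad2 both depleted libraries lay close to the control levels of 12.5 and 14 CPM. For Dtx3l (104 and 78.6 CPM in control) and Ifit2 (64.2 and 49.4 CPM), replicate A lay within the control range and replicate B below both controls. Ifit2 was at 84.1 and 85.2 CPM under dual blockade, 96.5 and 61.7 CPM under triple therapy, 68.6 and 66.4 CPM under APG-157 + anti-PD-1, 91.6 and 43.95 CPM under APG-157, 76.1 and 53.2 CPM under anti-PD-1, 53.1 and 48.2 CPM under anti-CTLA-4 and 68.6 and 61.3 CPM under anti-CD8. Parp14 fell to 88.6 and 78.6 CPM, against 189 and 194 CPM under APG-157 + anti-CTLA-4, a log2 fold change of −1.20 (SE 0.38, edgeR adjusted p = 0.0461). Samd9l fell to 65.1 and 66.0 CPM, against 118 and 123 CPM under APG-157 + anti-CTLA-4, a log2 fold change of −0.88 (SE 0.25, edgeR adjusted p = 0.0339). Tor3a (ENSMUSG00000060519.12) fell to 76.7 and 65.8 CPM, against 113 and 110.4 CPM under APG-157 + anti-CTLA-4 and 90.8 and 85.8 CPM in control, a log2 fold change of −0.65 (SE 0.18, edgeR adjusted p = 0.033). Ifi27l2a was the exception in direction, with 37.1 and 159.6 CPM against 31.7 and 28.5 CPM in APG-157 + anti-CTLA-4, a log2 fold change of 1.71 (SE 0.54, edgeR adjusted p = 0.0466), which was 0.30 without replicate B of the depleted group.

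**Figure D4:**
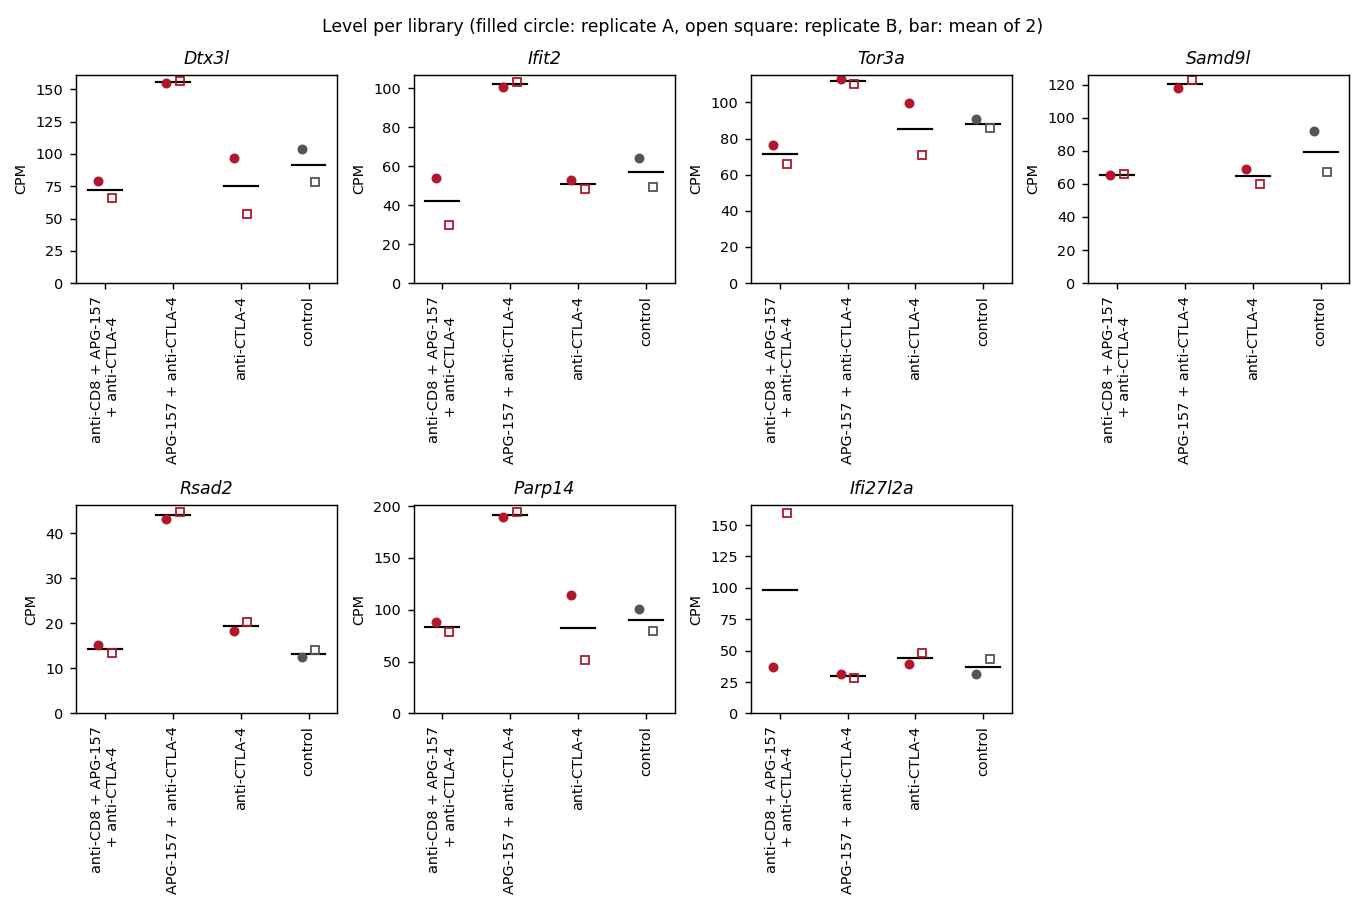
Levels in CPM (vertical axes, from 0) of the 7 genes called between the depleted combination and APG-157 + anti-CTLA-4, shown beside anti-CTLA-4 and control, replicate A as a filled circle, replicate B as an open square and the mean of 2 as a bar. In 6 genes the depleted libraries lie below those of APG-157 + anti-CTLA-4, whereas the Ifi27l2a mean rests on replicate B (159.6 CPM).

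These 7 calls depended on the libraries described above. None was kept when the 2 APG-157 + anti-CTLA-4 libraries were summed as 1 sample, when either of them was left out, or when replicate B of the depleted group, the library with adipocyte markers and Epcam, was left out. Those fits called 2, 2, 2 and 8 of all genes tested. Without replicate A of the depleted group, edgeR called 6 of the 42 genes, Oas2 among them and neither Rsad2 nor Parp14, against 40.7% of all genes. Without replicate B the log2 fold changes of the 6 lower genes were between −1.53 (Rsad2) and −0.54 (Tor3a), and the median of all 42 genes was −0.72. Macrophage markers moved with these genes. All 10 were negative in the comparison (median −0.59), where 55.3% of all genes were positive. Of the 10 markers, 3 fell, against 8.18% of all genes called lower. The summed level of these markers was 1832 CPM in replicate B of the depleted combination, the lowest of the 20 libraries (median 4028 CPM). All 10 proliferation genes were negative too (median −0.65, 0 called by edgeR), with sums of 2021 and 1049 CPM in the depleted combination, against 2314 and 2373 CPM in APG-157 + anti-CTLA-4. In the other direction, 8 of 8 adipocyte markers (median 10.8), 5 of 9 fibroblast markers (median 0.94), 3 of 6 endothelial markers (median 1.14) and 4 of 8 epithelial markers tested (median 5.35) rose, against 10.8% of all genes called higher. Fibroblast markers summed to 5034 and 5322 CPM in the depleted combination, against 3053 and 2912 CPM in APG-157 + anti-CTLA-4, and endothelial markers to 185 and 213 CPM, against 96.9 and 98.2 CPM in APG-157 + anti-CTLA-4. The part of these cells in the values of the 42 genes was not tested.

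The ligands of the pathway were nearly absent from the counts. Of 20 genes for type I and type III interferons, 4 had any count in the 20 libraries. Ifnb1, interferon beta, had a total of 36 counts in 10 libraries, with 4 and 12 counts in APG-157 + anti-CTLA-4, against 0 and 4 in control. Ifna2 had a total of 9 counts and Ifnk 5, and Ifne had 73, of which 72 were in replicate B of the depleted combination. The others had 0 counts, which allows up to 3 counts, or 0.0416 to 0.0683 CPM per library, for counting error only. The receptor was present in every library, with Ifnar1 between 56.4 and 116 CPM and Ifnar2 between 69.9 and 116 CPM. Ifnlr1, the receptor of type III interferon, was at 4.95 CPM in replicate B of the depleted combination and at most 0.217 CPM elsewhere.

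Of 9 receptor and kinase genes, 8 had positive log2 fold changes with dual blockade against control (median 0.18) and 0 were called by edgeR, with 0 at an unadjusted p under 0.05. With the depleted combination against APG-157 + anti-CTLA-4, 3 fell, with log2 fold changes of −0.64 for Tyk2, −0.62 for Ifnar1 and −0.59 for Jak1, and Ifnlr1 rose, resting on replicate B (8.18% of all genes called lower and 10.8% higher). Of 14 nucleic acid sensors and adaptors outside the 42 genes, 13 were positive with dual blockade (median 0.24), with 0 called by edgeR and 1 at an unadjusted p under 0.05. In the depletion comparison, 13 of the 14 were negative (median −0.51) and 2 fell, including the RNA sensor Tlr8 at −1.64 (SE 0.49). A further 40 genes induced by type I interferon gave 39 that were tested. All 39 were positive with dual blockade (44.5% of all genes), with a median of 0.63 and 20 at an unadjusted p under 0.05 (4.22% of all genes higher). With APG-157 + anti-CTLA-4, 37 were positive (46.5% of all genes), with a median of 0.47, and edgeR called 0 in either. The count of 20 was not repeated with single libraries left out. In the depletion comparison 34 of the 39 were negative and 7 fell, among them the ubiquitin ligase Rnf213 at −1.15 (SE 0.26), against 8.18% of all genes called lower. These calls outside the 42 genes come from the same fit, in which leaving out either APG-157 + anti-CTLA-4 library or replicate B of the depleted combination left 2, 2 and 8 calls among all genes.

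Interferon gamma targets and their cellular sources were set beside the 42 genes, since many of these genes answer to both kinds of interferon. Ifng itself had 4.08 and 11.4 CPM under dual blockade, 3.46 and 2.87 CPM under APG-157 + anti-CTLA-4 and 0.394 and 0.101 CPM under APG-157, against 0.557 and 0.428 CPM in control. Of 30 interferon gamma response genes, all 30 were positive with dual blockade (44.5% of all genes), with a median of 2.27, beside 0.88 for the 42 genes. EdgeR called 0 of the 30, with 23 at an unadjusted p under 0.05 (4.22% of all genes higher), a count not repeated with single libraries left out. All 13 T and NK cell genes were positive as well, with a median of 2.64.

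The lists moved apart in 1 library of APG-157 given alone. In APG-157 replicate A, 37 of the 42 genes lay above both controls and 0 below, with a median of 0.67 on the log2 scale, while 19 of 30 interferon gamma response genes lay below both controls and 6 above (median −0.33) and 10 of 13 T and NK cell genes lay below (median −1.40). Irf7 was at 80.0 CPM in that library, against 32.3 and 41.98 CPM in control, while Ifng was at 0.394 CPM, Cd8a at 1.505 CPM, against 5.66 and 6.67 CPM in control, and Irf1, a main target of interferon gamma, at 116 CPM, against 138 and 153 CPM in control. In APG-157 replicate B, 39 of 42 genes, 29 of 30 interferon gamma response genes and 10 of 13 T and NK cell genes lay below both controls. With 1 library on each side, the difference between the APG-157 libraries has no replicate. The share of all genes above or below both controls in these single libraries was not computed.

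**Figure D5:**
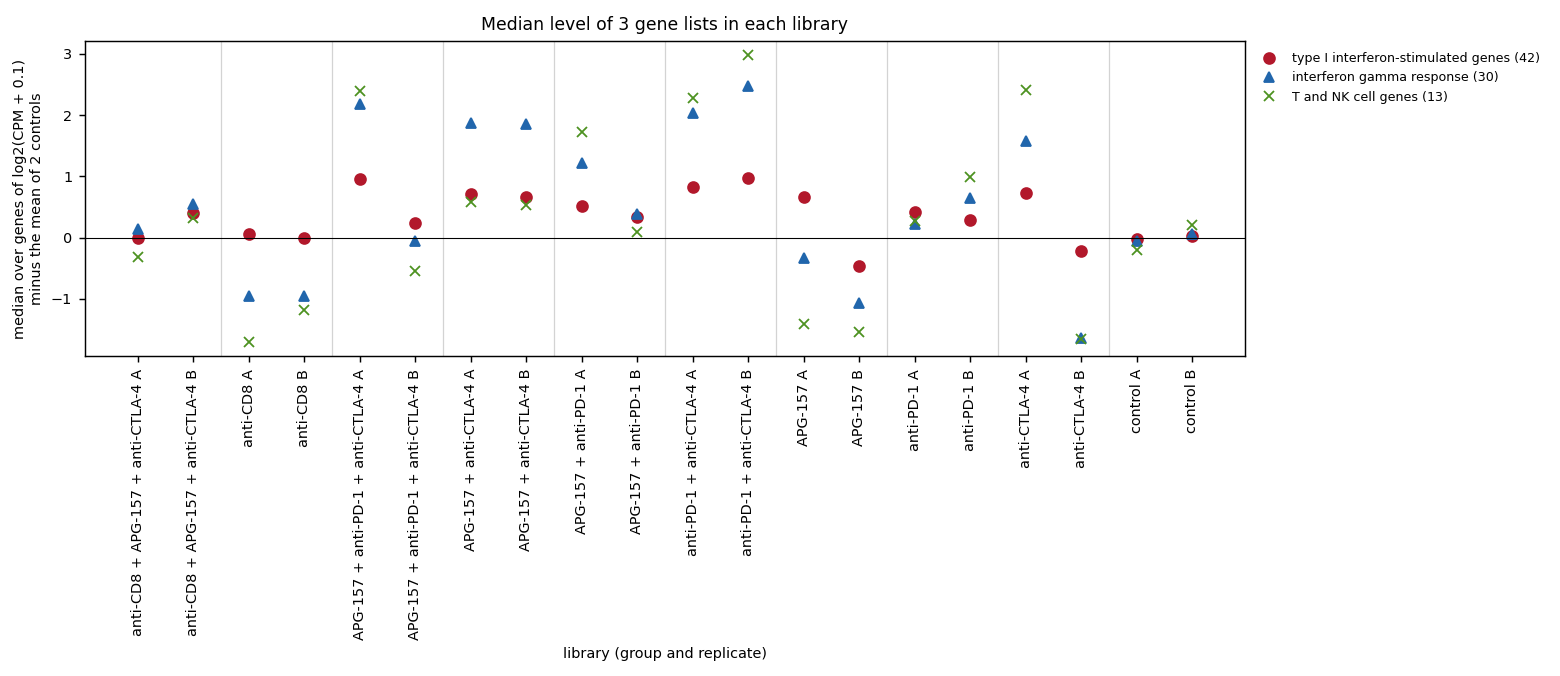
Median over the genes of 3 lists in each library (points), as log2(CPM + 0.1) minus the mean of the 2 control libraries. In dual blockade all 3 lists lie above 0, while in APG-157 replicate A the 42 genes lie at 0.67 and the T and NK cell genes at −1.40.

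With anti-CD8, 29 of 30 interferon gamma response genes lay below both controls in replicate A and 29 in replicate B, with medians of −0.96 and −0.95, while the 42 genes had medians of 0.06 and −0.01. With anti-CTLA-4 replicate B, 29 of 30 interferon gamma response genes and 11 of 13 T and NK cell genes lay below both controls (medians −1.63 and −1.66), with 26 of the 42 genes below (median −0.21). The 2 APG-157 + anti-CTLA-4 libraries had medians of 1.87 and 1.86 for the interferon gamma response and 0.72 and 0.66 for the 42 genes. In replicate B of the depleted combination, 27 of the 42 genes lay above both controls and 8 below, and 20 of 30 interferon gamma response genes lay above. Here too, no share over all genes was computed for single libraries.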

How the data were processed

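The authors trimmed reads with Trimmomatic 0.39 and ran Salmon (1.5.0 in the submitters' processing notes) on GRCm39, and deposited unscaled expected counts per gene, 71.5% of them whole. Per-gene estimates split reads between near-identical copies, and C3H reads were compared with the mouse reference genome. A second deposited table of log2 values, made by the authors, was not used. Counts were rounded and filtered (filterByExpr, minimum count 10, minimum total 15). EdgeR 4.0.16 fitted a robust quasi-likelihood model with TMM scaling to all 20 libraries (10 residual degrees of freedom), and p-values were Benjamini-Hochberg adjusted over 19567 genes. Genes under an adjusted p of 0.05 were called, whatever their fold. DESeq2 1.42.0, other scalings and filters, a replicate block and each library left out were alternatives. The fits were tested on simulated counts. Of 54309 gene IDs, 51484 matched a symbol. All members could be named, with values in detail for Isg15, Ifit1, Rsad2, the 3 transcription factors, called members and the member of each other role with the largest range. Members and lists were chosen with earlier results of these data known. List medians per library used a pseudocount of 0.1. R 4.3.3, Python 3.11.15 and matplotlib 3.10.9 were used. 1 gene of the pathway is not reported here.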

Additional observations from a re-analysis of the deposited data

How the results depend on the processing

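Of 116 alternatives to the counts of called genes that left out no library, 10 moved the count, and of 96 alternatives to the medians, 0 moved them by more than the replicate SD of 0.384. With DESeq2, 1 gene was called for APG-157 + anti-CTLA-4 against control, 5 for that group against anti-CTLA-4, 3 for the anti-CTLA-4 main effect and 7 for any difference among the groups, where edgeR called 0. APG-157 + anti-CTLA-4 against anti-CTLA-4 also gave 1 call with a filter at a mean of 1 CPM (6.78% of all genes), 1 in a fit of 19 libraries without replicate B of the depleted combination (5.65%), and 4 with the replicate letter as a block (3.05%). For the depleted combination against APG-157 + anti-CTLA-4, where edgeR called 7, there were 3 calls with no low-count filter (5.92% of all genes), 0 with a log2 fold change over 2 and 0 when both libraries of APG-157 + anti-CTLA-4 were added up. The causes were not tested.

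Whether the letters A and B pair samples is not stated in the labels. Of 45 pairs of groups, 14 had deviations between A and B correlated above 0.1 (range −0.44 to 0.76). These mixed values cannot decide the question, and the main fit used no block. The replicate block left 7 calls in the depletion comparison, without Ifi27l2a and with Ifih1, while 18.8% of all genes were called in that fit.

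With each library left out, the calls ranged from 0 to 2 for the depleted combination against control (2 without its replicate A, when 30.2% of all genes were called), 0 to 6 for that group against APG-157 + anti-CTLA-4 (40.7% in the fit with 6), 0 to 3 for the anti-CTLA-4 main effect and 0 to 3 for any difference (3 without replicate A of the depleted combination, 18.2% of all genes). The median ranged from −0.44 to 0.67 for APG-157 alone, from −0.25 to 0.68 for anti-CTLA-4 from 0.27 to 0.98 for triple therapy, from −0.089 to 0.28 for the APG-157 main effect and from −0.0052 to 0.99 for APG-157 + anti-CTLA-4 against anti-CTLA-4. Log2 fold changes that changed sign ranged from −0.37 to 0.48 for Ifi27l2a and −0.060 to 0.87 for Ifit1bl1 with dual blockade against control, and from −0.11 to 0.21 for Isg15 in APG-157 + anti-CTLA-4 compared with control. Against APG-157 + anti-CTLA-4, the depleted combination gave −0.10 to 0.27 for Isg15 and −0.70 to 0.33 for Usp18, which was also at 0.049 with the filter at a mean of 1 CPM. With 2 libraries a group, leaving 1 out assumes that the lone library varies like the others.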
